A study of Mus musculus with 3 samples.

Results

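The 45 genes described here are parts of the machinery with which a cell copies its DNA and divides. They are 25 genes of mitosis, 13 genes of DNA replication, 5 cyclins of the G1 phase and 2 inhibitors of the cyclin-dependent kinases (CDKs). They were taken by name from a list, drawn up with earlier results of these data known, and all 45 were among the 24958 genes of the table of mouse ovary cells. A cell entering the cycle makes D and then E cyclins, which release the E2F factors that switch on replication genes. The MCM helicase is loaded at origins in G1 by *Cdt1* and *Cdc6*, *Pcna* clamps the polymerase to DNA in S phase, and ribonucleotide reductase supplies the nucleotides. Mitosis genes are held down by the DREAM complex in resting cells and come on later, driven by B-MYB and FOXM1, and their proteins condense, attach and separate the chromosomes. In the ovary, granulosa cells (GCs) of growing follicles divide fast under FSH, and they stop dividing as the luteinizing hormone surge turns them into luteal cells, a step at which D cyclins fall and the inhibitors p21 and p27 are known to act.

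The ovaries were taken 0, 1 and 6 h after an injection of hCG, a hormone that acts on the luteinizing hormone receptor, giving 3 libraries of 10x Chromium single-cell RNA and no replicate of any time. The study's methods describe 21-day-old Kunming mice killed 48 h after PMSG, a gonadotropin that makes follicles grow, for the ovaries without hCG. Whether the ovaries at 1 and 6 h had PMSG was not stated, nor was the number of animals in a library. The cells of all 3 libraries stood in 1 table, and their barcodes ended in 1, 2 or 3. The library names in the labels carry the numbers 1, 2 and 3 for 0, 1 and 6 h, but no source says that the endings follow those names, so the groups are called barcode sets 1, 2 and 3 here, and a difference between sets is not assigned to a time after hCG. With 1 library a set there was no test between sets and no p-value. Intervals are nominal 95% intervals, Poisson for UMIs (counted RNA molecules) and exact binomial for shares of cells, and cover counting error only. In simulated counts the intervals of folds held the true value less often than their nominal level, so they are too narrow.

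The sets held 10384, 9917 and 11475 cells, with medians of 6093, 6352 and 6524 UMIs a cell and median mitochondrial shares of 3.95%, 4.42% and 2.93%. Between 27 and 46 barcodes recurred in any pair of sets. Cells were clustered within each set without 167 cell cycle genes, these 45 among them, and clusters were named by fixed markers. This gave 4563, 4706 and 5126 granulosa-like cells, 2881, 2644 and 3801 stroma-like, 1399, 517 and 786 theca-like, 433, 687 and 459 endothelial-like and 109, 144 and 175 myeloid-like cells in sets 1, 2 and 3. Of the 10 granulosa markers 9, 9 and 10 were higher in the granulosa-like cells than in other cells, and all 10 endothelial, all 10 myeloid and all 10 stroma markers were higher in their class in every set. Of the 8 theca markers 7, 6 and 6 were higher in theca-like cells, and of the 5 luteal markers 5, 5 and 4 in luteal-like cells. The classes were named by these same markers, so these counts are no independent check of the names. The summed granulosa markers were at 142, 145 and 56.9 UMIs per 10000, so the markers that name the class were lower in set 3. The theca marker *Ano1* was under 0.05 UMIs per 10000 in theca-like cells of sets 2 and 3. So was the stroma marker *Dpt* in stroma-like cells of sets 1 and 2. The clusters called atretic, cluster 9 of set 1 with 441 cells and cluster 6 of set 2 with 642, were counted as granulosa-like from their atretic markers alone, with 0 granulosa markers detected. Clusters with too few markers, of low depth or with leading genes of another class stayed unnamed, 195, 416 and 521 cells in all.

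Promoters are shown for 6 members, 3 of mitosis and 3 of replication, because these groups differed in the motif letters before their starts. Each line gives the 250 bases before the gene start, in RefSeq on GRCm38.p6, 5′ to 3′ on the gene's strand. Capitals mark CCAAT boxes (CCAAT or ATTGG), the cell cycle homology region or CHR (TTTGAA or TTTAAA) and E2F letters, which are the heptamer TTCCCGC and its variants with other middle bases, namely TTGGCGC and also TTCGCGC and further TTGCCGC, on both strands, so that overlapping motifs run into each other. The windows lie at chr2:164769679-164769928 (+) for *Ube2c*, chr13:100786487-100786736 (-) for *Ccnb1*, chr10:69352913-69353162 (-) for *Cdk1*, chr8:75109259-75109508 (+) for *Mcm5*, chr1:128359706-128359955 (-) for *Mcm6* and chr2:132253181-132253430 (-) for *Pcna*.
Ube2c: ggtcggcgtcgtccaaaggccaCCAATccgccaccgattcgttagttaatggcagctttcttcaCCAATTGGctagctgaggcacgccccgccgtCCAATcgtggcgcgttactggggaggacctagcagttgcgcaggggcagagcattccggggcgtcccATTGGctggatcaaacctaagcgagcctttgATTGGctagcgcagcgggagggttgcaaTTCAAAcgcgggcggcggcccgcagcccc
Ccnb1: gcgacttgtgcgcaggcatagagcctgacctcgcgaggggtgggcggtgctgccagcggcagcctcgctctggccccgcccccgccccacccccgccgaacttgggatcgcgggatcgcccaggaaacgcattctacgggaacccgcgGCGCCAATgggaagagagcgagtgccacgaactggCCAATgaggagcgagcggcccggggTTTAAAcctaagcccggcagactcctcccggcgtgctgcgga
Cdk1: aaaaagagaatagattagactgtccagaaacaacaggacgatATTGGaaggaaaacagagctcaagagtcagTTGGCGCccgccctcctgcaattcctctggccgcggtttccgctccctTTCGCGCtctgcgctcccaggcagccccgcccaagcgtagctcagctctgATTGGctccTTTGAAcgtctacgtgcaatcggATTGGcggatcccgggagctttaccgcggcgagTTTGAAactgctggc
Mcm5: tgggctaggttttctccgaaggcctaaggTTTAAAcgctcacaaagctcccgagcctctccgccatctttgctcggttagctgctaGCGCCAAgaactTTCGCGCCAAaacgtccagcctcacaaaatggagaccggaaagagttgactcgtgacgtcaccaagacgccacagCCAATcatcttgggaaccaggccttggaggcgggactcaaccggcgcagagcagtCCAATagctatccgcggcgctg
Mcm6: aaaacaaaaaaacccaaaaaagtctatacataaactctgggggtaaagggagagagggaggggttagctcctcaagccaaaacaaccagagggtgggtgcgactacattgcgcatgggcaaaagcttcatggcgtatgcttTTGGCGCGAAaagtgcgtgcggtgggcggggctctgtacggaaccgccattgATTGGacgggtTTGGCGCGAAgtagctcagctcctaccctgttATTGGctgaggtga
Pcna: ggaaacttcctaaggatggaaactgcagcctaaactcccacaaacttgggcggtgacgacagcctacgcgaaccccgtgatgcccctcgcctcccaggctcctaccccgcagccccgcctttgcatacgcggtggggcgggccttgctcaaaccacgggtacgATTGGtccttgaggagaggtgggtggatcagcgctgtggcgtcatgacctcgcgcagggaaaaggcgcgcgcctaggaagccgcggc

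*Ube2c*, which gives the anaphase-promoting complex its ubiquitin, had 6 CCAAT boxes and 1 CHR in these bases, and *Cdk1*, the kinase that drives entry into mitosis, had 3 CCAAT boxes, 2 CHRs and 2 E2F matches. *Mcm6*, a subunit of the replicative helicase, had 2 CCAAT boxes and 4 E2F matches, and *Pcna* had 1 CCAAT box and none of the other letters. Promoters were found for 36 of the 45 members, and none was found for *Ccna2*, *Aurkb*, *Tpx2*, *Kif20a*, *Mcm4*, *Gins2*, *Ccnd1*, *Ccnd2* or *Ccne2*. These 36 had 40 promoters, since *Prc1*, *Mcm7*, *Ccnd3* and *Cdkn1a* had 2 each, and each promoter was counted. CCAAT was in 20 of 22 mitosis promoters (90.9%) and 9 of 12 replication promoters (75%), against 33.8% of all 32851 promoters of that length. CHR letters were in 13 of 22 mitosis promoters (59.1%) and 2 of 12 replication promoters (16.7%), against 25.2% of all. E2F letters were in 4 of 22 mitosis promoters (18.2%) and 7 of 12 replication promoters (58.3%), against 7.89% of all. TATAAA, the TATA box, was in none of the 40, against 12.4% of all promoters. *Cdkn1a*, the gene of p21, had none of the 4 motifs in either window. These are matches of letters, and binding of a factor was not measured.

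Levels are means over cells of UMIs per 10000 UMIs of the cell, and they are not corrected for gene length, so they order the genes by how well they were counted. *Ccnd2* led over all cells at 2.11, followed by *Ube2c* at 0.914, *Cdkn1b* at 0.82, *Top2a* at 0.718 and *Pcna* at 0.65. The lowest were *Ccne2* at 0.0485, *Ttk* at 0.0442 and *Cdc6* at 0.0349, so that a cell of median depth rarely held a UMI of them. The members did not share a cell class of highest level. The G1 cyclin *Ccnd1* peaked in endothelial-like cells at 3.99, *Ccnd2* in granulosa-like cells at 3.05, *Cdkn1a* in myeloid-like cells at 1.84 and *Cdkn1b* in luteal-like cells at 2.95.

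**Figure D1:**
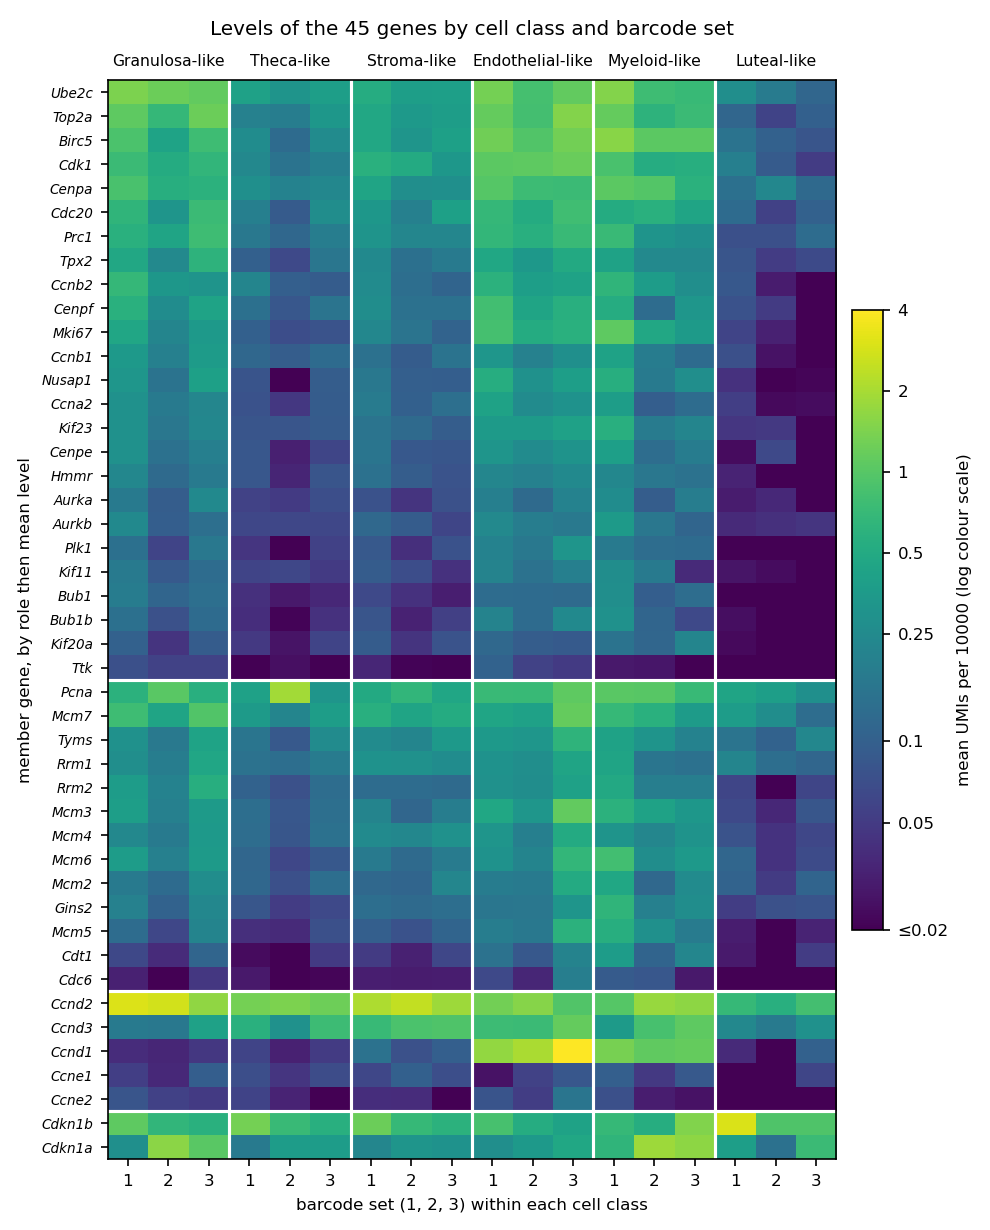
Level of each of the 45 members (rows, grouped by role) in each cell class and barcode set (columns), in mean UMIs per 10000 on a log colour scale, 1 library a set and no error shown. Mitosis members are brighter together in granulosa-, endothelial- and myeloid-like columns, while *Ccnd1*, *Ccnd2*, *Cdkn1a* and *Cdkn1b* each follow a pattern of their own.

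The 25 mitosis members summed to 11.4, 6.81 and 10.3 UMIs per 10000 in granulosa-like cells of sets 1, 2 and 3. Endothelial-like cells were at 13.5, 9.83 and 12.7, the highest of the named classes in sets 2 and 3. Myeloid-like cells were at 14.4, 7.89 and 7.56. Stroma-like cells were lower at 5.75, 3.83 and 4.04, and theca-like cells, which make androgens, were lower again at 3.22, 2.11 and 3.3. The luteal-like cells, named by *Sfrp4*, *Ptgfr* and other luteal markers, were the lowest class at 1.83, 1.3 and 0.991. Outside the luteal markers, their highest class marker level was the epithelial one in set 1, at 0.933. In sets 2 and 3 it was the oocyte and the theca one, at 0.366 and 0.24. The order granulosa above stroma above theca above luteal held in all 3 sets. The counting intervals did not overlap, but they cover neither the spread between cells nor that between libraries. At a finer clustering resolution of 2, no cluster of set 1 was named luteal-like. There 219 cells with *Sfrp4* and *Ptgfr* among their leading genes stayed unnamed, and 178 cells led by *Bhmt* and *Saa3* were named theca-like. Replication members summed to 3.92, 2.98 and 4.91 in granulosa-like cells and to 3.92, 3.37 and 7.85 in endothelial-like cells.

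**Figure D2:**
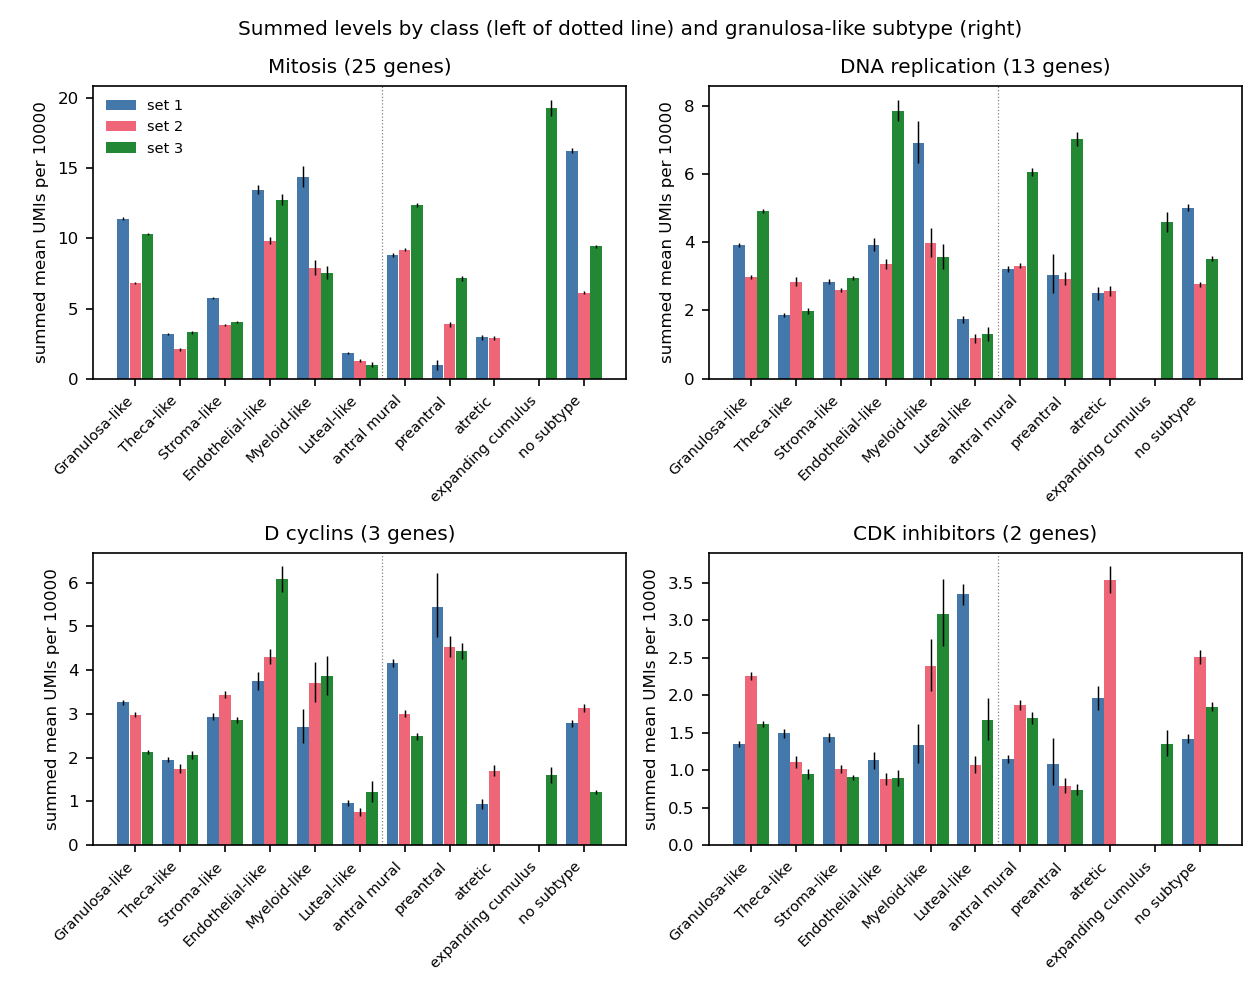
Summed level (UMIs per 10000) of the mitosis, replication, D cyclin and CDK inhibitor members in each cell class and barcode set, with exact 95% Poisson intervals for counting error. Mitosis was lowest in set 2 in granulosa-, theca-, stroma- and endothelial-like cells, while the CDK inhibitors of granulosa-like cells were highest in set 2 at 2.25.

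Granulosa-like cells were set against the other classes within each library. A member was called higher or lower at a fold of at least 1.5 where its level was at least 0.05 in either group. Over stroma-like cells, 28 of 44, 21 of 42 and 33 of 43 members tested were higher in sets 1, 2 and 3, against 24.2%, 19.7% and 26.2% of all genes, and 2, 4 and 2 were lower, against 18.7%, 25.7% and 16.9%. The median member was 1.82, 1.5 and 2.16 times its stroma level, with all genes at 1.12, 0.938 and 1.11. Where UMIs were summed over cells before dividing, so that deep cells weigh more, 15 of 44, 11 of 44 and 35 of 45 members were higher, against 23.7%, 19.7% and 26% of all genes. Over theca-like cells, 38 of 44, 35 of 40 and 38 of 43 members were higher, against 28%, 35.4% and 27.3% of all genes, and 2, 2 and 1 were lower, against 14.8%, 13.7% and 12.8%. Over endothelial-like cells, 3 of 45, 2 of 44 and 2 of 45 members were higher, against 29.5%, 21.3% and 29.3% of all genes, and 7, 22 and 18 lower, against 23.3%, 35.9% and 21.6%, so that in set 1 the share lower was under that of all genes. Most members were thus called higher than in theca-like cells in every set, and few were called higher than in endothelial-like cells.

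In granulosa-like cells, most mitosis and replication members had their lowest level in set 2. In set 2 over set 1, 30 of the 43 members tested were lower and 2 were higher, *Pcna* and *Cdkn1a*, against 38.7% of all 10392 genes lower and 8.82% higher. The median of all genes was itself at 0.74 in this comparison, and the median member was at 0.577. In set 3 over set 2, 26 of 43 were higher and 3 lower, against 35.7% and 13.8% of all genes, with medians of 1.76 for the members and 1.26 for all genes. Set 3 over set 1 left 7 higher and 5 lower, against 14.7% and 22.5%, with medians of 0.945 and 0.934. With classes from a marker gate on each cell this comparison had 15 of 44 higher and 2 lower, against 13.3% and 19.8%, with medians of 1.29 and 0.954, and the summed mitosis ratio turned from 0.903 to 1.13. Each set enters 2 of these 3 comparisons, so they are not independent of one another. Cluster 1 of set 2 held 1121 granulosa-like cells and had 7 granulosa markers detected. Its 10 leading genes held the luteal marker *Ptgfr* but no granulosa marker. Without this cluster, 24 members were lower in set 2 over set 1 and 21 higher in set 3 over set 2, against 32.7% and 31.2%. Centred on the median of all genes, the 30 lower members of set 2 came to 10, against 15.4% of all genes lower, and the 26 higher members of set 3 to 17, against 21% higher.

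**Figure D3:**
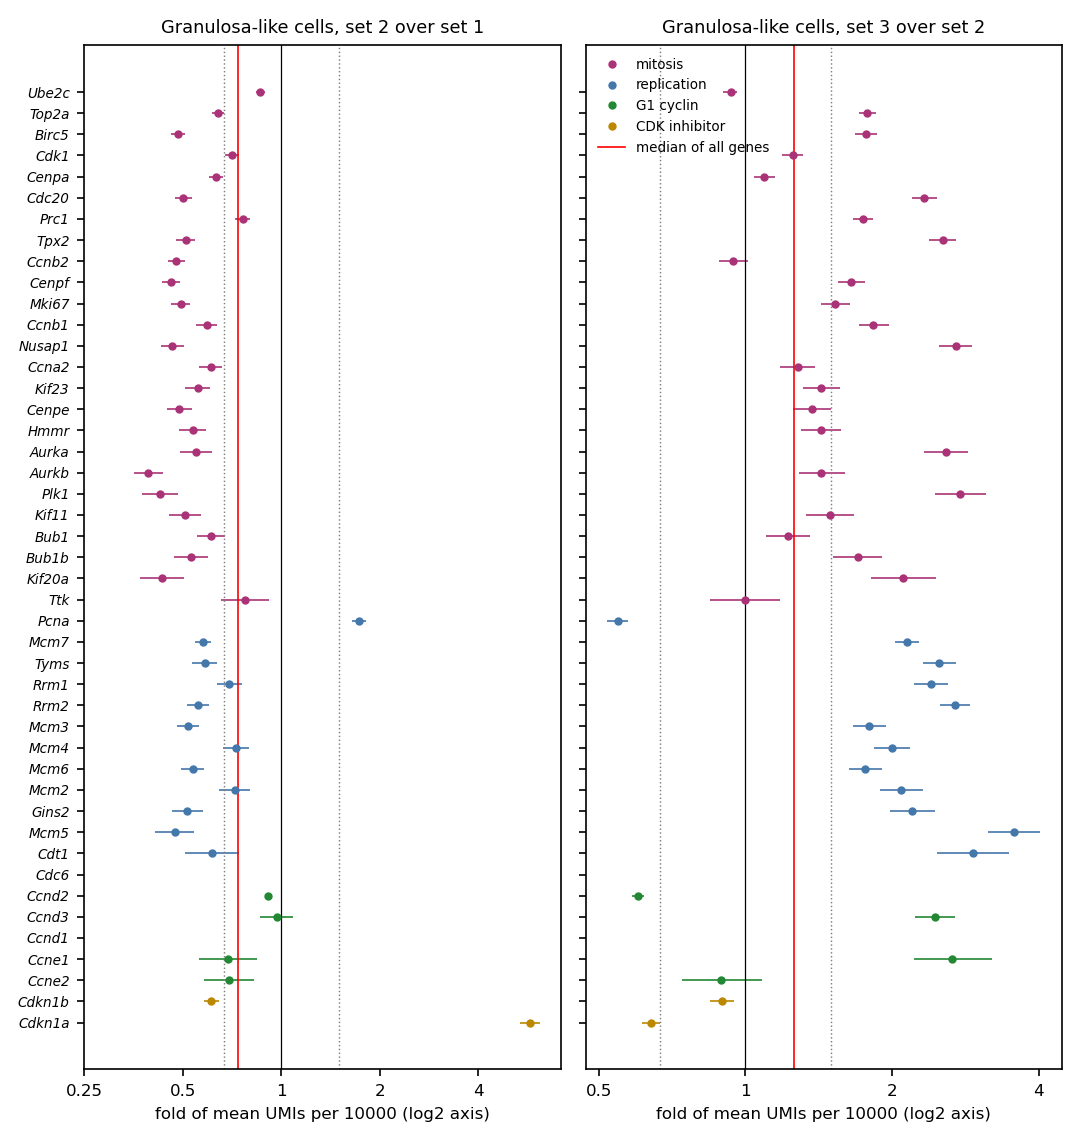
Fold of each member in granulosa-like cells (log axis) for set 2 over set 1 (left) and set 3 over set 2 (right), with 95% counting intervals, a red line at the median fold of all genes and dotted lines at a fold of 1.5. Most mitosis and replication members lie below 1 on the left and above 1 on the right, and *Cdkn1a* lies at 5.77 and 0.641.

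A small cluster carried much of the level in set 1. Cluster 14 of set 1, 246 granulosa-like cells led by the histone genes *Hist1h2ae* and *Hist1h3c* and by cell cycle genes such as *Top2a*, *Rrm2*, *Aurkb* and *Prc1*, held 77.3 UMIs per 10000 of the mitosis members and 14.7 of the replication members, at a median of 10574 UMIs a cell. It had 7 granulosa markers detected, and no cluster of the other sets was led by histone genes. Without it the lower members in set 2 over set 1 came to 10 of 42, against 37.9% of all genes, and the ratio of the summed mitosis level from 0.597 to 0.891. The replication ratio moved from 0.76 to 0.901, and set 3 over set 1 then had 17 of 43 members higher and 3 lower, against 15.5% and 22.7%. The summed mitosis level of set 3 was 0.903 times set 1 with the cluster and 1.35 times without it, so that this direction turned. These values remove the cells of highest mitosis level from set 1 alone, while such cells stay in sets 2 and 3, and so the ratios to set 1 had to rise. They show how much of the set 1 level lay in these cells, and not what the sets would show without dividing cells.

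The mitosis members are given one by one with all granulosa-like cells counted. *Mki67*, the gene of the proliferation antigen Ki-67, was at 0.457, 0.225 and 0.344 UMIs per 10000 in sets 1, 2 and 3. Set 2 was 0.493 times set 1 (0.46 to 0.527), and set 3 was 1.53 times set 2 (1.43 to 1.64). *Top2a*, the topoisomerase that untangles sister chromatids, was at 1.07, 0.684 and 1.22. Set 3 was level with or above set 1 for this gene, at a fold of 1.14, and below it for *Mki67*, at 0.754. *Birc5*, the survivin of the chromosomal passenger complex, was at 0.896, 0.433 and 0.764, and its partner kinase *Aurkb* was at 0.247, 0.0967 and 0.139. *Aurkb* had the lowest fold of any member in set 2 over set 1, at 0.392 (0.354 to 0.434).

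In set 3, 8 of the 25 mitosis members lay above their set 1 level, none by a fold of 1.5, with the histone-led cluster of set 1 counted. They were *Top2a*, *Ccnb1* and the 6 described next, which were brought together after their values were seen. *Plk1*, a kinase of centrosomes and kinetochores, was at 0.14, 0.0599 and 0.166, with folds of 0.426 and then 2.76 (2.45 to 3.12). *Nusap1*, a microtubule bundler, was at 0.321, 0.149 and 0.404, and rose over set 2 by a fold of 2.7. *Aurka*, the centrosome kinase, was at 0.173, 0.0948 and 0.245, and its activator *Tpx2* was at 0.478, 0.244 and 0.619. Their folds of set 3 over set 2 were 2.58 and 2.54, and both were higher in set 3 than in set 1, at 1.42 and 1.29. *Cdc20*, the activator of the anaphase-promoting complex, was at 0.636, 0.32 and 0.745, and *Prc1*, which bundles the midzone of the spindle, at 0.578, 0.441 and 0.768.

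The mitosis members not yet given were below their set 1 level in set 3, apart from *Ccnb1*. *Ccnb2*, a B cyclin, was at 0.689, 0.329 and 0.31, so that set 3 was 0.944 times set 2 (0.882 to 1.01) and 0.45 times set 1. Its paralogue *Ccnb1* was at 0.341, 0.202 and 0.37, which put set 3 at 1.08 times set 1 (1.02 to 1.15). The B cyclins thus parted in set 3. *Ccna2*, the A cyclin, was at 0.292, 0.178 and 0.229. *Cenpa*, the centromere histone, was at 0.872, 0.549 and 0.601, and *Cenpe* and *Cenpf*, which bind kinetochores, ended at 0.669 and 0.759 times their set 1 level. *Ube2c* moved less, at 1.4, 1.21 and 1.13. *Cdk1* was at 0.745, 0.525 and 0.657. The remaining mitosis members, the checkpoint genes *Bub1*, *Bub1b* and *Ttk*, the motors *Kif11*, *Kif20a* and *Kif23* and the hyaluronan receptor *Hmmr*, had folds of 0.432 to 0.776 in set 2 over set 1 and of 0.999 to 2.11 in set 3 over set 2. Over all 25 mitosis members, 21 were lower and none was higher in set 2 over set 1, against 38.7% and 8.82% of all genes. From set 2 to set 3, 13 were higher and none was lower, against 35.7% and 13.8%.

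The summed replication level of set 2 was 0.76 times set 1, or 0.585 times without *Pcna*, beside 0.597 for mitosis, so *Pcna* made that difference. From set 2 to set 3 the ratio was 1.65, or 2.24 without *Pcna*, beside 1.51. Of the 12 tested, 8 were lower and 1 higher in set 2 over set 1, against 38.7% and 8.82% of all genes, and 11 were higher and 1 lower in set 3 over set 2, against 35.7% and 13.8%. Set 3 had 4 higher than in set 1, against 14.7%. The helicase subunit *Mcm5* was at 0.13, 0.0615 and 0.218, with a fold of 3.55 (3.14 to 4.03) in set 3 over set 2. *Mcm7* was at 0.769, 0.444 and 0.951 and *Mcm6* at 0.377, 0.202 and 0.356. The other subunits *Mcm2*, *Mcm3* and *Mcm4* rose by folds of 2.09, 1.79 and 2 over set 2. The ribonucleotide reductase subunits *Rrm1* and *Rrm2* were at 0.458 and 0.558 in set 3, against 0.191 and 0.208 in set 2. *Tyms*, the thymidylate synthase, was at 0.294, 0.172 and 0.429, *Gins2*, a helicase cofactor, at 0.205, 0.106 and 0.233, and the loader *Cdt1* at 0.0628, 0.0386 and 0.113. *Cdc6* stayed under the level of 0.05 in all 3 sets and was not tested here.

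*Pcna* went the other way from every other replication member tested. It was at 0.6, 1.04 and 0.569 in granulosa-like cells, so that set 2 was 1.73 times set 1 (1.64 to 1.82) and set 3 was 0.548 times set 2 (0.521 to 0.575). In theca-like cells the excursion was larger, at 0.416, 1.9 and 0.314, with folds of 4.57 (4.16 to 5.03) and 0.165 (0.145 to 0.188). Antral mural granulosa-like cells were at 0.493, 1.34 and 0.702. Stroma-like cells had 0.502, 0.654 and 0.459 UMIs per 10000, while endothelial-like cells were at 0.721, 0.718 and 1.07, with no excess in set 2. The rise of the summed replication level in theca-like cells, from 1.87 to 2.85, was thus *Pcna* alone among the members tested, since 7 of the other 9 were lower in set 2, against 45.2% of all genes.

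*Cdkn1a*, the gene of p21, had the largest fold of the members in set 2 over set 1 over all granulosa-like cells. It was at 0.278, 1.6 and 1.03 in granulosa-like cells, a fold of 5.77 (5.38 to 6.19) in set 2 over set 1, and set 3 kept 3.69 times the set 1 level. In antral mural granulosa-like cells the levels were 0.201, 1.26 and 0.99, and in atretic granulosa-like cells 0.858 and 2.61 in sets 1 and 2. Myeloid-like cells, at 0.636, 1.84 and 1.62, and theca-like cells, at 0.176, 0.378 and 0.375, also had more in sets 2 and 3. Stroma-like cells stayed between 0.229 and 0.317. The histone-led cluster of set 1 held *Cdkn1a* at 0.275, close to the level in all granulosa-like cells of that set.

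*Cdkn1b*, the gene of p27, was lower in sets 2 and 3 than in set 1 in most classes. It was at 1.06, 0.651 and 0.583 in granulosa-like cells, at 1.32, 0.727 and 0.571 in theca-like, at 1.21, 0.697 and 0.604 in stroma-like and at 0.856, 0.533 and 0.423 in endothelial-like cells. Set 1 was highest in all 4 classes, and set 3 was at 0.434 to 0.547 times set 1. Luteal-like cells held the most in set 1, 2.95, and 0.931 and 0.93 in the other sets. Myeloid-like cells were the exception at 0.702, 0.54 and 1.47. That excess in set 3 went with a cluster led by *S100a9* and *S100a8*, and without it set 3 was 0.85 times set 1.

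The G1 cyclins divided by cell class. *Ccnd2*, the D cyclin that FSH induces in GCs, was at 3.05, 2.78 and 1.68 in granulosa-like cells, which put set 3 at 0.602 times set 2 (0.584 to 0.62) and 0.549 times set 1. It was at 4, 2.88 and 2.13 in antral mural granulosa-like cells. Preantral granulosa-like cells, a subtype whose size changed with the clustering, had it at 5.04, 4.08 and 4.01. The granulosa-like cells of no subtype were at 2.56, 2.95 and 0.674. Their clusters in set 3 had other leading genes than those in sets 1 and 2, so these are not levels of 1 cell type. *Ccnd3* ran against *Ccnd2*, at 0.173, 0.168 and 0.411, a fold of 2.45 in set 3 over set 2. *Ccnd1* was under 0.05 in granulosa-like cells of every set and at 1.69, 2.05 and 3.99 in endothelial-like cells, where set 3 was 1.94 times set 2 (1.78 to 2.12). Among the E cyclins, which pair with *Cdk2*, *Ccne1* rose in granulosa-like cells of set 3 to 0.0971, from 0.0365 in set 2, and *Ccne2* was at 0.0801, 0.0555 and 0.0496.

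By subtype as named here, the dip in set 2 was not common to all granulosa-like cells. Antral mural granulosa-like cells, those with *Inhba*, *Cyp19a1* and *Lhcgr* among their markers, had summed mitosis levels of 8.81, 9.2 and 12.4, so that set 2 was not below set 1. They came from clusters 4, 6 and 8 of set 1, from clusters 1 and 2 of set 2, and from clusters 4 and 7 of set 3. Cluster 4 of set 3, 917 of the 1659 cells, had *Inhbb* and *Inhba* among its 10 leading genes, but also *Angpt2*, *Mmp11*, *Mlf1*, *Pik3ip1* and *Tdrd5*, of which *Pik3ip1* is a marker of atretic cells and *Angpt2*, *Mlf1*, *Pik3ip1* and *Tdrd5* led the atretic-like cluster of set 2. At the finer clustering resolution of 2, *Angpt2* and *Mmp11* led 536 cells that received no name, so the name of these set 3 cells is uncertain. Cluster 7 of set 3, with *Tex14*, *Cables1* and *Dynap* among its leading genes, and cluster 1 of set 2, led by *Comp* and *Tnfsf11*, had no antral mural marker among their 10 leading genes. Cluster 1 had the luteal marker *Ptgfr* there, so these subtype names are uncertain too, though both clusters had 7 granulosa markers detected. Without cluster 4 the mitosis level of set 3 was 17.3, without cluster 1 that of set 2 was 16.5, and at resolution 2 the levels were 6.93, 9.15 and 10.3. In set 2 over set 1, 7 of their 41 members tested were higher and 10 lower, against 10.6% and 53.6% of all genes, and the median member was 0.867 with all genes at 0.637. *Top2a* in these cells was at 0.549, 1.02 and 1.64, and *Cdk1* at 0.43, 0.703 and 0.773. In set 3 over set 1, 26 of 45 were higher and 2 lower, against 17% and 17.6% of all genes, with medians of 1.62 and 0.98. Without cluster 4 of set 3 they were 34 of 44 and 0, against 15.5% and 22.3%, and at resolution 2 they were 21 of 44 and 2, against 14.5% and 17.9%. From set 2 to set 3, 26 of 45 were higher and 1 lower, against 52.3% and 12.7%, near the share of all genes, with medians of 1.8 and 1.56. At resolution 2 they were 19 of 44 and 4, against 50.6% and 12.6%, and without cluster 1 of set 2 they were 11 of 45 and 9, against 51.5% and 12.1%. That cluster also bears on set 2 over set 1, where 22 of 43 were higher and 0 lower without it, against 11.3% and 52.4%. The counts of this subtype thus depended on which clusters were given its name, and set 2 was not below set 1 in summed mitosis level in any of these settings. Leaving out cluster 7 of set 3 was not among these settings. The replication level of this subtype was at 3.21, 3.31 and 6.06, and *Mcm7* was at 0.501, 0.292 and 1.22, a fold of 4.16 in set 3 over set 2.

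Within the antral mural subtype, single clusters held most of the mitosis level. In set 1 it was cluster 6, led by *Inhbb* and *Slc16a3*, with 20.2 UMIs per 10000, against 2.29 and 3.85 in clusters 4 and 8. In set 2 it was cluster 2, which also had *Inhbb* among its leading genes, with 16.5 against 3.63. In set 3 it was cluster 7, with 17.3 against 8.38 in cluster 4. Between the *Inhbb* clusters, 6 of set 1 and 2 of set 2, the level was lower in set 2. Between the clusters led by *Comp* and *Tnfsf11*, 4 of set 1 and 1 of set 2, it was higher in set 2. *Tex14*, *Cables1* and *Dynap*, of cluster 7, also led cluster 11 of set 2, which received no subtype. The levels of the subtype thus depended on the mix of its clusters. Without cluster 7, whose name was uncertain too, set 3 would thus lie below the subtype's 8.81 in set 1 and 9.2 in set 2. The clusters were made without the members, but not without every gene of the cycle. Histone genes and genes that follow the mitosis level closely, such as *Pclaf* and *Pbk*, were not left out. The mitosis levels of clusters are thus not independent of how the clusters were made.

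Granulosa-like cells of no subtype had the lower level in set 2. Their mitosis level was 16.2, 6.14 and 9.43, and 39 of 43 members tested were lower in set 2 over set 1 and 1 was higher, against 37% and 9.26% of all genes. The group did not hold the same kinds of cluster in each set. In set 3 it was clusters 1 and 3, with *Comp*, *Npy*, *Sult1e1* and *Nts* among their leading genes. These genes also led cluster 1 of set 2, which was named antral mural. The levels of the group are thus not those of 1 cell type. In set 1 the group holds the histone-led cluster. Without it the set 1 level was 7.68, the ratio of set 2 to set 1 rose from 0.378 to 0.8, and 12 of 42 members were lower and 2 higher, against 35.4% and 9.67%. Preantral granulosa-like cells were counted in 56, 342 and 791 cells and had mitosis levels of 0.948, 3.88 and 7.14. From set 2 to set 3, 32 of their 44 members tested were higher and none was lower, against 13.1% and 13.5% of all genes, and the median member was 2.18 with all genes at 1.01. *Mcm5* went from 0.0796 to 0.402 in these cells, a fold of 5.05 (3.37 to 7.87), and *Top2a* from 0.328 to 1.05. The preantral comparison turned on the clustering. At resolution 2 the subtype held 314, 342 and 398 cells, with mitosis levels of 4.83, 3.88 and 3.83, so that set 1 was no longer lowest. From set 2 to set 3, 14 of 40 members were then higher and 6 lower, against 15.4% and 14%, the mitosis ratio was 0.989 instead of 1.84, and the replication ratio 1.88 instead of 2.4. Atretic granulosa-like cells, in sets 1 and 2, stayed low at 2.94 and 2.87. The 140 expanding-cumulus-like cells, a type named in set 3 alone, were at 19.3, the highest of the subtypes in that set.

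Endothelial-like cells, outside the follicle, differed in set 3 more in the replication than in the mitosis members. In set 3 over set 2, 20 of 45 members were higher and 1 lower, against 13.7% and 19.5% of all genes, with medians of 1.47 and 0.956. Of the 13 replication members 12 were higher. *Mcm3* was at 0.469, 0.324 and 1.12, a fold of 3.44 (2.88 to 4.13). *Mcm5* was at 0.189, 0.165 and 0.608 and *Mcm7* at 0.447, 0.419 and 1.16, folds of 3.68 and 2.76. *Cdc6*, which was too low to test in granulosa-like cells, was at 0.0643, 0.0352 and 0.192, a fold of 5.45 (3.42 to 8.84). The replication level was 2.33 times set 2 (2.2 to 2.47) while the mitosis level was 1.3 times set 2 (1.25 to 1.35), so the replication members moved further than the mitosis members. In set 2 over set 1, 15 of 45 members were lower and 1 higher, against 10.1% and 6.59% of all genes. Set 2 held a cluster of 29 cells with the lymphatic genes *Ccl21a*, *Mmrn1* and *Lyve1* and a mitosis level of 30.9. In set 1, 43 cells with the same lymphatic genes stayed unnamed, so the endothelial-like cells of set 1 lacked them. Without the 29 cells of set 2 the mitosis ratio of set 2 to set 1 was 0.66 instead of 0.729. The replication ratio of set 3 to set 2 was then 2.5 instead of 2.33.

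Theca-like cells had 22 of 37 members lower and 2 higher in set 2 over set 1, against 45.2% and 10.3% of all genes, and 22 of 39 higher and 1 lower in set 3 over set 2, against 42.6% and 15.9%. The member medians of 0.628 and 1.62 lay beside 0.701 and 1.33 for all genes in theca-like cells. Most of this course was thus that of all genes in this class. Stroma-like cells had 19 of 42 lower and 1 higher in set 2 over set 1, against 16.1% and 5% of all genes, and 10 of 41 higher and 3 lower in set 3 over set 2, against 23.5% and 19.3%. *Mki67* in stroma-like cells was at 0.231, 0.152 and 0.109, and set 3 did not regain it. Set 3 had 13 of 42 lower and 1 higher than in set 1, against 27.1% and 16.3%.

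Myeloid-like cells were few. In set 2 over set 1, 27 of 44 members were lower and 3 higher, against 25.8% and 20.7% of all genes, with medians of 0.528 and 0.942. *Mki67* was at 1.07, 0.478 and 0.359, and *Mcm6* at 0.802, 0.269 and 0.348. In set 3, 96 of the 175 cells formed a cluster led by *S100a9* and *S100a8*, genes of neutrophils and monocytes, with a mitosis level of 1.85 against 14.5 in the 79 cells led by *C1qa* and *Pf4*. Its cells had a median of 2213 UMIs, against 5669, and its highest class marker level was the lymphoid one, at 0.833. In set 2, 23 cells led by *S100a9* and *S100a8*, at a median of 1188 UMIs, stayed unnamed, so the myeloid-like cells of set 2 lacked them. With the set 3 cluster, 8 of 43 members were higher and 6 lower than in set 2, against 27.5% and 23.5% of all genes. Without it, 25 of 44 were higher and 4 lower, against 24.5% and 29.9%, so the myeloid comparison of sets 2 and 3 turned on which cells were counted.

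Shares of cells with mitosis or with replication members were read from cells thinned to 3000 UMIs each, so that all cells had the same depth. A cell was called positive with UMIs of at least 2 mitosis members. Positive granulosa-like cells made up 23.6% (22.3 to 24.9) of set 1. They were 17.9% (16.8 to 19.1) of set 2 and 27.8% (26.5 to 29.1) of set 3, with 590 of the 14395 cells left out as too shallow. Unthinned the shares were 34.8%, 30% and 41.3%, at median depths of 5893, 6755 and 6558 UMIs. Luteal-like cells, the class of lowest mitosis level, gave 4.42%, 4.43% and 2.63% at 3000 UMIs. At that depth the granulosa-like shares stood well above these. Unthinned, luteal-like cells gave 29.5%, 31.8% and 22.5%, at medians of 12930, 15771 and 9935 UMIs, so in set 2 they exceeded granulosa-like cells. Their low thinned share is not independent of their low level, which rests on the same genes. Without the histone-led cluster the granulosa-like share in set 1 was 19%.

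Antral mural granulosa-like cells were positive in 20.5%, 24.8% and 31.2% of cells. Preantral ones, by the coarser clustering, were positive in 3.7%, 9.94% and 20.3%, and the expanding-cumulus-like cells in 41.4% (33.2 to 50.1). Endothelial-like cells were positive in 26%, 23.1% and 33.6%, stroma-like in 14.2%, 10.1% and 10.5%, and theca-like in 8.51%, 4.75% and 8.51%. The theca-like share of set 2 lay near the luteal-like share. For at least 2 replication members, granulosa-like cells were positive in 22.1%, 15.4% and 29.4%, and endothelial-like cells in 21.7%, 18% and 45.9% (40.5 to 51.3). Luteal-like cells gave 11.3%, 2.53% and 5.26% by that measure.

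**Figure D4:**
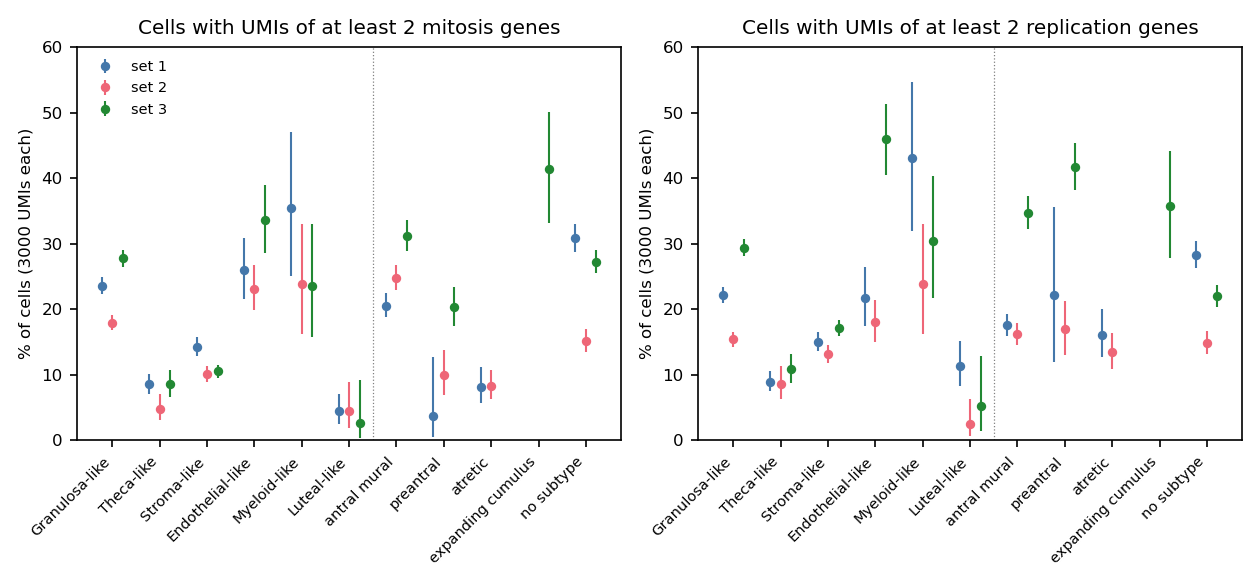
Share of cells (percent) with UMIs of at least 2 mitosis members (left) or at least 2 replication members (right) after thinning to 3000 UMIs, by cell class and barcode set, with exact 95% binomial intervals. Set 2 is the lowest of the 3 sets in granulosa-like cells for both measures, and the replication share of endothelial-like cells in set 3 reaches 45.9%.

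Positive granulosa-like cells held 13.9, 10.2 and 10.6 mitosis UMIs per 3000, and the other cells held 0.318, 0.267 and 0.329. Cells were called positive by these same UMIs, so the gap follows from the definition. Among the positive cells, 47.7%, 40.3% and 61% also had at least 2 replication members. In endothelial-like cells that share was 49.5%, 45.3% and 73.9%. This share rises with the replication share itself, which was also highest in set 3, and it was not set against the overlap that the separate shares would give.

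Single cells separated the roles of the members. Granulosa-like cells with a UMI of *Mki67* (355, 224 and 375 thinned cells) held the other mitosis members at 10.5, 9.62 and 6.72 times the level of cells without it. Replication members were at 2.88, 2.99 and 2.73 times, the E cyclins at 3.55, 1.83 and 2.66 times and the D cyclins at 1.8, 1.32 and 1.32 times. The CDK inhibitors were at 1.25, 1.05 and 1.12 times, so their level differed little between *Mki67* cells and others. Cells with *Cdkn1a* (261, 1300 and 1021) held mitosis members at 1.27, 1.09 and 1.15 times the level of cells without it. In set 3 the *Cdkn1a* cells had *Ccnd2* at 0.466 times and *Mcm6* at 0.456 times the level of other cells. Cells with *Pcna* held the other replication members at 2.53, 2.02 and 2.35 times, and set 2, where *Pcna* was highest, had the weakest link.

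**Figure D5:**
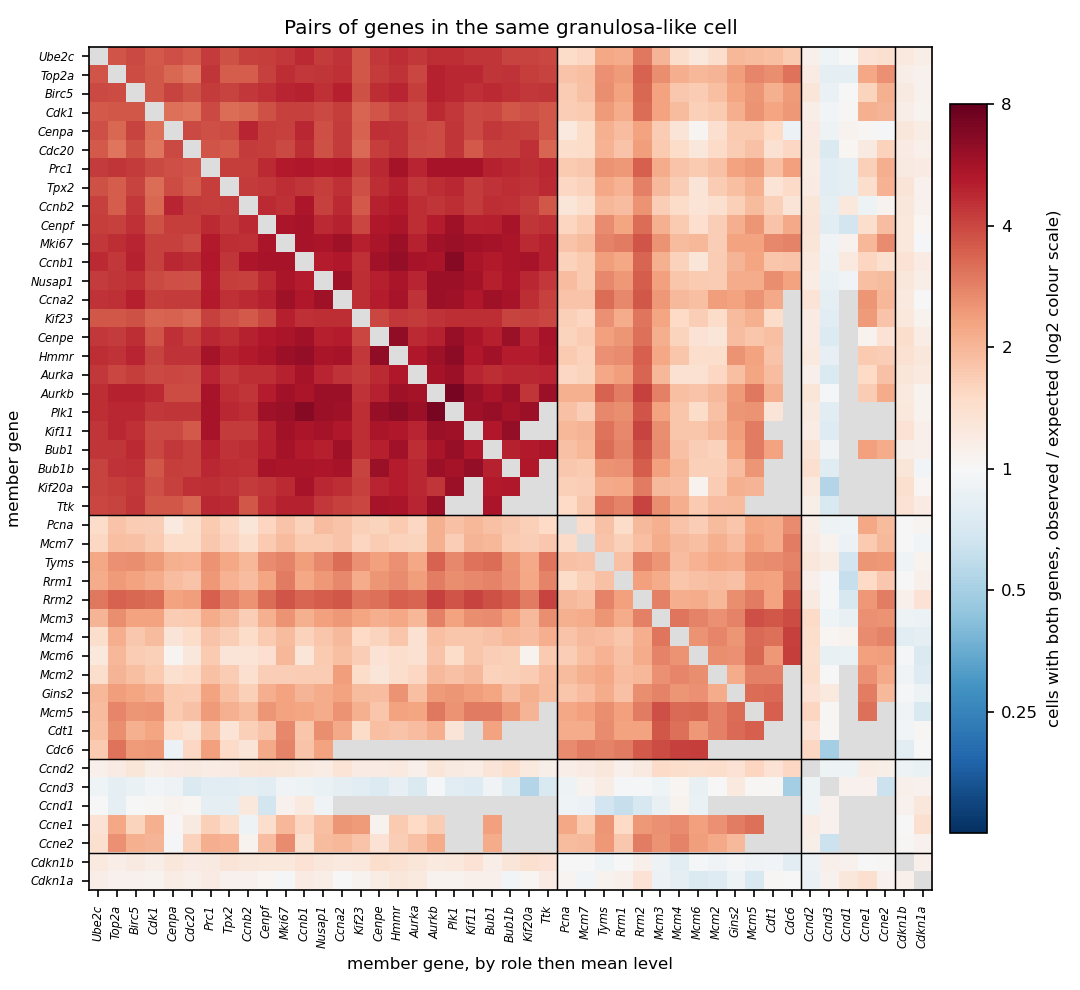
Observed over expected number of granulosa-like cells holding both members of a pair (colour, log scale), members ordered by role, over the 3 sets of cells thinned to 3000 UMIs. The mitosis block is above 1 for all 295 pairs, the replication block lies lower at a median of 2.34, *Ccnd3* lies below 1 with many mitosis members, and *Cdkn1a* lies below 1 with several replication members. Grey marks pairs with fewer than 10 expected cells.

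Pairs of members were then counted in the same cells, against the number expected from their separate shares in each set. Mitosis members occurred together at 4.62 times the expected number in the median of 295 pairs, from 3.03 for *Cdk1* with *Cdc20* to 7.19 for *Plk1* with *Aurkb*. Replication members did so at 2.34 times over 74 pairs, from 1.46 for *Pcna* with *Rrm1* to 4.24 for *Mcm6* with *Cdc6*. A mitosis with a replication member was found at 1.98 times, and *Rrm2*, with *Aurkb*, reached 4.14. Mitosis members with G1 cyclins were at a median of 1.19, from 0.548 for *Kif20a* with *Ccnd3* to 2.69 for *Mki67* with *Ccne2*. Mitosis members with CDK inhibitors were also at a median of 1.19, with 47 of 50 pairs above 1. Replication members with CDK inhibitors were at 0.942, with 9 of 26 pairs above 1. They ran from 0.723 for *Mcm5* with *Cdkn1a* to 1.34 for *Rrm2* with *Cdkn1a*. Pairs share cells and depth, so these ratios are a description.

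The summed mitosis level was compared with 7659 genes outside the members and the cell cycle lists. This was done across the 53 named clusters of the 3 sets. Unnamed clusters, some of high mitosis level, were left out. The level was followed most closely by *Pclaf*, a PCNA-binding factor (Pearson's r = 0.926), and by *Shcbp1* (0.925). Next came the mitotic kinase *Pbk* (0.924) and *Diaph3* (0.921), with *Kif15* at 0.91 and *Plk4*, the centriole kinase, at 0.908. Each mitosis member correlated with the sum of the others at 0.811 (*Ttk*) to 0.966 (*Mki67*), and the replication members at 0.564 (*Pcna*) to 0.86 (*Rrm2*). *Ccnd1* was at 0.416, *Ccnd2* at 0.296, *Ccnd3* at -0.177, *Cdkn1a* at 0.178 and *Cdkn1b* at -0.315. Clusters of 1 set share a library, so no p-value is given.

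Other genes of the cycle, from lists of 36 S phase, 58 G2 and M phase and 28 regulator genes, were counted in granulosa-like cells too, with the histone-led cluster included. In set 2 over set 1, 24 of 31 S phase genes tested and 39 of 54 G2 and M genes were lower, with 0 and 2 higher, against 38.7% and 8.82% of all genes. Set 3 had 25 of 32 and 32 of 53 higher than in set 2, with 0 and 1 lower, against 35.7% and 13.8%. *Gmnn*, the inhibitor of *Cdt1*, was at 0.213 in set 2 and 1.17 in set 3, a fold of 5.5. Of the regulators, 6 of 24 were higher and 6 lower in set 2 over set 1. The antiproliferative genes *Btg2* and *Ccng2* rose there, *Btg2* from 4.21 to 18.5 and *Ccng2* from 0.606 to 2.71. In set 3 over set 2 the regulators had 10 of 25 higher and 7 lower, with *Ccng2* at 0.128 and the p19 gene *Cdkn2d* at 4.06 times its set 2 level. In endothelial-like cells 26 of 34 other S phase genes were higher in set 3 over set 2 and 0 lower, against 13.7% and 19.5% of all genes.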

How the data were processed

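Single-cell libraries of mouse ovaries at 0, 1 and 6 h after hCG were deposited as 1 table of 24958 genes and 31776 cells, which the authors aligned to mm10 with Cell Ranger and normalized with Seurat (submitters' processing notes, with no versions). The deposited values are on the natural log scale, ln(1 + UMIs per 10000 UMIs of the cell). The deposited log values were turned back into UMI counts, and 100% of the 80167176 values above 0 were whole within 0.01 UMI, in all 240030587 UMIs. The table held 0 columns of other samples. Cells were clustered per barcode set (scanpy 1.11.5, Louvain at resolution 1, 2000 variable genes, 30 components), leaving out 167 cell cycle genes, and clusters were named from fixed markers with thresholds that were set after the clusters had been looked at and adjusted once. Scrublet called 43 cells (0.135%), too few for it to have worked, so doublets were kept and the 8% of highest score in each set were left out as an alternative. A level is the mean over cells of UMIs per 10000. A gene was tested at 0.05 or more in either group and called at a fold of 1.5, with no model and no p-value. All members were named, ordered by role and level, and of other cycle genes at most the 3 of largest and the 3 of smallest fold per list were eligible. The members and lists were chosen with earlier results of these data known. In simulated sets the intervals for counting error were too narrow. Promoters came from RefSeq on GRCm38.p6.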

Additional observations from a re-analysis of the deposited data

Results flagged for a closer look

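Some members moved in opposite directions in different cell classes, past a fold of 1.5 in both, and the differences between the classes were not tested. *Mcm7* in set 3 over set 2 was at 2.15 in granulosa-like and 0.643 in myeloid-like cells. In set 3 over set 1, *Mcm2* was at 1.5 and 0.555, *Mcm5* at 1.68 and 0.323, *Rrm1* at 1.67 and 0.331, *Ccnd2* at 0.549 and 1.65, and *Cdkn1b* at 0.547 and 2.09 in the same classes. Without the myeloid-like cluster of set 3 led by *S100a9* and *S100a8*, the myeloid-like folds over set 1 were 0.874 for *Mcm2*, 0.692 for *Mcm5*, 0.65 for *Rrm1*, 1.08 for *Ccnd2* and 0.85 for *Cdkn1b*, and *Mcm7* over set 2 was at 0.869, so that *Rrm1* alone of these 6 was past a fold of 1.5. *Ccne2* in set 3 over set 1 was at 0.619 in granulosa-like and 2 in endothelial-like cells.

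Cells of unnamed clusters, which no comparison used, held summed mitosis levels of 35.7, 12.2 and 14 UMIs per 10000 in sets 1, 2 and 3, above the luteal-like cells of the same sets. In set 1 they were 152 cells led by *Ooep* and *Dppa3*, genes of the oocyte, at 36.8 and a median of 891 UMIs, and 43 cells led by *Ccl21a* and *Mmrn1* at 31.7. The 152 cells also had *Pbk*, *Ube2c*, *Birc5*, *Aurka* and *Spc25* among their leading genes and 5 granulosa markers detected. In set 2, 327 unnamed cells had *Ube2c* and *Cdca3* among their leading genes and 3 granulosa markers detected. In set 3, 144 cells led by *Plk1* and *Bub1b*, at a median of 1156 UMIs, were at 29.4. These 144 cells had 5 granulosa markers detected and stayed unnamed for their low depth. Counted as granulosa-like, they moved the mitosis ratio of set 3 over set 2 from 1.51 to 1.59 and that of set 3 over set 1 from 0.903 to 0.948. The unnamed cells of sets 1 and 2 were not added in the same way, so these ratios had to rise. The part of their low depth in these levels was not tested.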

How the results depend on the processing

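No paired analysis was possible because each time point was 1 library and the barcode sets carry no replicate number. For the same reason no library was left out in turn.

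Of the values that answer a comparison, 192 stayed within 1.5 times (counts) or within their interval under an alternative, 99 moved further and 2 turned. Only ratios of summed levels were checked for direction, so a moved count or share was not shown to keep its direction. The 2 were the mitosis ratio of granulosa-like cells in set 3 over set 1, from 0.903 to 1.13 with the gate and 1.35 without the histone-led cluster. Of the other ratios 7 turned, the last of them given at the end, and some counts turned with them. The preantral mitosis ratio went from 4.09 to 0.802 in set 2 over set 1, from 1.84 to 0.989 in set 3 over set 2 and from 7.54 to 0.793 in set 3 over set 1 at resolution 2. The first and last rest on 56 cells of set 1. Preantral counts in set 2 over set 1 went from 25 higher and 2 lower, against 18.3% and 25% of all genes, to 2 and 16, against 6.5% and 9.7%, and in set 3 over set 1 from 39 and 2, against 22.1% and 27.9%, to 7 and 10, against 14.3% and 17.3%. In cells of no subtype without the histone-led cluster, the mitosis ratio of set 3 over set 1 went from 0.58 to 1.23 and the counts from 2 higher and 24 lower, against 21.5% and 32.5%, to 13 and 8, against 23% and 31.9%. Without the cluster of set 2 led by *Comp*, the antral mural mitosis ratio of set 3 over set 2 went from 1.34 to 0.75, and the D cyclin ratio of granulosa-like cells in set 2 over set 1 turned to 1.03. Alternatives named with or without a cluster, centred on all genes, in antral mural cells only or of subtypes at resolution 2 were chosen after seeing the data. The cause of the moves was not tested, apart from those that leave out a cluster or raise a threshold.

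At a fold of 2, granulosa-like counts of higher and lower members were 1 and 10 in set 2 over set 1, 17 and 0 in set 3 over set 2 and 2 and 1 in set 3 over set 1, against 5.69% and 16.1%, 17.8% and 7.29%, and 8.1% and 11% of all genes. Higher counts over stroma-like cells were 12 in set 1 and 10 in set 2, against 12.7% and 12.5%. Centred on the median of all genes, 10 were lower in set 2 over set 1, 17 higher in set 3 over set 2 and 11 higher in set 3 over set 1, against 15.4%, 21% and 17.6% of all genes. In antral mural cells only, the counts were 7 higher and 10 lower, then 26 higher and 1 lower, then 26 higher and 2 lower, against 10.6% and 53.6%, 52.3% and 12.7%, and 17% and 17.6% of all genes. Without the histone-led cluster of set 1, 10 were lower in set 2 over set 1, and set 3 over set 1 had 17 higher and 3 lower. With classes from a marker gate per cell, set 3 over set 1 had 15 higher and 2 lower, against 13.3% and 19.8%, and with means of the deposited log values 11 higher and 3 lower, against 15.5% and 20.6%. Over stroma-like cells, summed UMIs over summed totals gave 15 higher in set 1 and 11 in set 2, and log means gave 2 of 36 lower in set 2, against 21.5% of all genes.

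Shares of mitosis-positive granulosa-like cells in sets 1, 2 and 3 were 25%, 19.6% and 36.2% with the gate, 21.8%, 16.5% and 26% without the 8% of highest doublet score, 17.3%, 13.1% and 20.4% at 1500 UMIs, 17.5%, 12.8% and 20.8% with at least 3 members, and 19.1% and 29.7% in sets 2 and 3 at resolution 2. Set 1 was at 19% without the histone-led cluster, and set 2 at 20.3% without the cluster led by *Comp*. Set 2 was lowest and set 3 highest under each alternative that gave 3 moved values. Theca-like shares were 4.5% and 2.54% (sets 1 and 2) with the gate, 5.5% and 5.34% (sets 1 and 3) without high doublet scores, 5.16% and 6.11% (sets 1 and 3) at 1500 UMIs, and 4.76%, 2.77% and 5.54% with 3 members. Stroma-like shares were 12.7% and 8.04% (sets 1 and 2) with the gate, 12.2% (set 1) without high doublet scores, 8.43%, 6.08% and 6.35% at 1500 UMIs, 9.07%, 5.28% and 6.48% with 3 members, and 8.43% in set 3 at resolution 2. Endothelial-like shares were 18.8%, 16.1% and 23.7% at 1500 UMIs and 21.4%, 15.3% and 25.1% with 3 members. Myeloid-like shares were 25% and 13.1% (sets 1 and 3) at 1500 UMIs, and 35.3% in set 3 without the cluster led by *S100a9*.

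The mitosis ratio of granulosa-like cells in set 2 over set 1 was 0.616 at resolution 2, 0.636 with summed totals, 0.624 without the 50 most abundant genes and 0.891 without the histone-led cluster, and in set 3 over set 2 it was 1.87 with the gate, 1.55 without high doublet scores, 1.44 with summed totals and 1.47 without the 50 genes. The replication ratio in set 2 over set 1 was 0.739, 0.729, 0.789 and 0.901 with the gate, summed totals, without the 50 genes and without the cluster, and in set 3 over set 2 it was 2.04, 1.69, 1.61 and 1.6 with the gate, at resolution 2, without high doublet scores and without the 50 genes. Without the cluster led by *Comp*, the mitosis ratios were 0.685 and 1.32 and the replication ratios 0.838 and 1.49, in set 2 over set 1 and set 3 over set 2. With the unnamed cluster of set 3 led by *Plk1* the mitosis ratio was 1.59 in set 3 over set 2 and 0.948 in set 3 over set 1. In set 3 over set 1 it was 0.937 at resolution 2, 0.922 without high doublet scores, 0.914 with summed totals and 0.916 without the 50 genes, and the replication ratio 1.51 with the gate, 1.18 with summed totals and 1.48 without the histone-led cluster. The CDK inhibitor ratio of myeloid-like cells in set 3 over set 2 turned from 1.29 to 0.863 without the cluster led by *S100a9*.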

Other observations

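The unnamed cells aside, the mitosis members were also high in a few clusters of other classes. Of the stroma-like clusters, 2 of set 1 held mitosis levels of 12.2 and 13.9 UMIs per 10000 and 1 of set 2 held 7.15, above the other stroma-like clusters of their sets. Smooth-muscle-like cells were at 5.3, 4.95 and 5.9 in sets 1, 2 and 3, with set 3 above the other sets, unlike stroma-like cells, where set 1 was highest. The difference between these classes was not tested.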
